A study of Mus musculus with 9 samples.

Results

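Chemokine receptors are G protein-coupled receptors that let a T cell read gradients of chemokines and so decide which tissue it can enter. Several of them are grouped by where they lead: Cxcr3, Ccr2, Ccr4 and Ccr8 bind chemokines of inflamed tissue and skin, Ccr9 binds Ccl25 of the small intestine and thymus, Cxcr6 binds Cxcl16 and is found on T cells that stay in tissue, Cxcr4 binds Cxcl12 of bone marrow and stroma, and Cxcr5 binds Cxcl13 of the B cell follicle. Resting CD8 T cells circulate through lymphoid organs, and activation is known to exchange their homing receptors for those of inflamed tissue.

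The transcripts of 8 such receptors, Cxcr3, Cxcr4, Cxcr5, Cxcr6, Ccr2, Ccr4, Ccr8 and Ccr9, were followed in 3 CD8 T cell clones. They were chosen by gene symbol, and all 8 were among the 24060 genes of the expression table. All clones (R7-I, R7-II, R7-III) come from transnuclear mice on a Rag2-proficient BALB/c background. Each transnuclear line was made from the nucleus of 1 T cell, so every clone stands for a single T cell receptor, and a difference between clones cannot be told apart from any other difference between the mouse lines. The receptors recognise the same peptide of the ROP7 protein of Toxoplasma gondii presented by H-2Ld. The series design ranks their affinity for the peptide as highest in R7-I, intermediate in R7-III and lowest in R7-II, and their self-reactivity as highest in R7-III and lowest in R7-II. Splenocytes of all 3 lines were given IL-2 (10 ng/ml) and ROP7 peptide (10 µM) and left overnight, after which CD3+ CD8+ cells binding the H-2Ld-ROP7 tetramer were sorted, at a stated purity of 90% to 95%. Unstimulated samples were not analysed here, so the data compare clones after activation and not the cells before and after it. The mice's age and sex are not given in the sources used here.

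Polyadenylated RNA was sequenced from 3 libraries per clone, 9 in all. Levels are given as TPM, a length-corrected share of all transcripts in a library, which allows levels of different genes to be set side by side. TPM keeps no record of the reads behind it, so the depth of each library is unknown, and the authors give only a typical number of reads per sample. The number of genes above 0 TPM ranged from 13738 to 14434, and Pearson correlations across genes between libraries of the same clone were between 0.992 and 0.997. Differences were tested with limma on log2(TPM + 1) for the 11330 genes whose highest TPM exceeded 1, and a gene was called at an adjusted p below 0.01. Folds on this scale understate the change of genes with low TPM. The labels call the libraries biological replicates without saying that they came from separate mice, so the p-values measure the spread between these libraries. As the RNA is from sorted bulk populations, fewer cells that express a receptor and less receptor RNA per cell cannot be told apart.

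The R7-II libraries differed from those of both other clones in receptor transcripts. Ccr9, Cxcr4 and Cxcr6 exceeded their levels in the other clones, and Cxcr3, Ccr4 and Ccr8 stayed below them. Ccr9 showed the largest ratio of means, 10.3 against R7-I. Lists of B cell, MHC class II and myeloid markers were also higher in the R7-II libraries (B cell sum 38.8 to 78.3 TPM against at most 17.0 TPM elsewhere), and their part in the receptor differences was not tested. Of the 8 receptors 7 could be tested, since Ccr2 stayed at or below 0.25 TPM in all libraries. Against R7-I, 6 of the 7 were called (3 higher and 3 lower in R7-II), where 56.1% of all genes tested were called, 40.6% higher and 15.5% lower. Against R7-III, all 7 tested were called (4 higher and 3 lower), where 53.6% of all genes were called, 35.6% higher and 18.0% lower. In R7-III against R7-I, 0 of the 7 were called by limma and 1 (Ccr8) had an unadjusted p below 0.05, where 8.41% of all genes were called, 6.96% higher and 1.45% lower. As most genes were called in either comparison of R7-II, little can be read from the number of receptors called. Cxcr5 passed the filter only through R7-II replicates 1 and 3, and Ccr8 only through the R7-III libraries, so the counts among tested receptors depend on where these are high. Ccr9, Cxcr4 and Cxcr6 were called higher and Cxcr3, Ccr4 and Ccr8 lower against both other clones also after a median-of-ratios scaling of the libraries and after quantile normalization. Across all genes, the median log2 difference of R7-II was 0.17 from R7-I and 0.12 from R7-III.

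**Figure D1:**
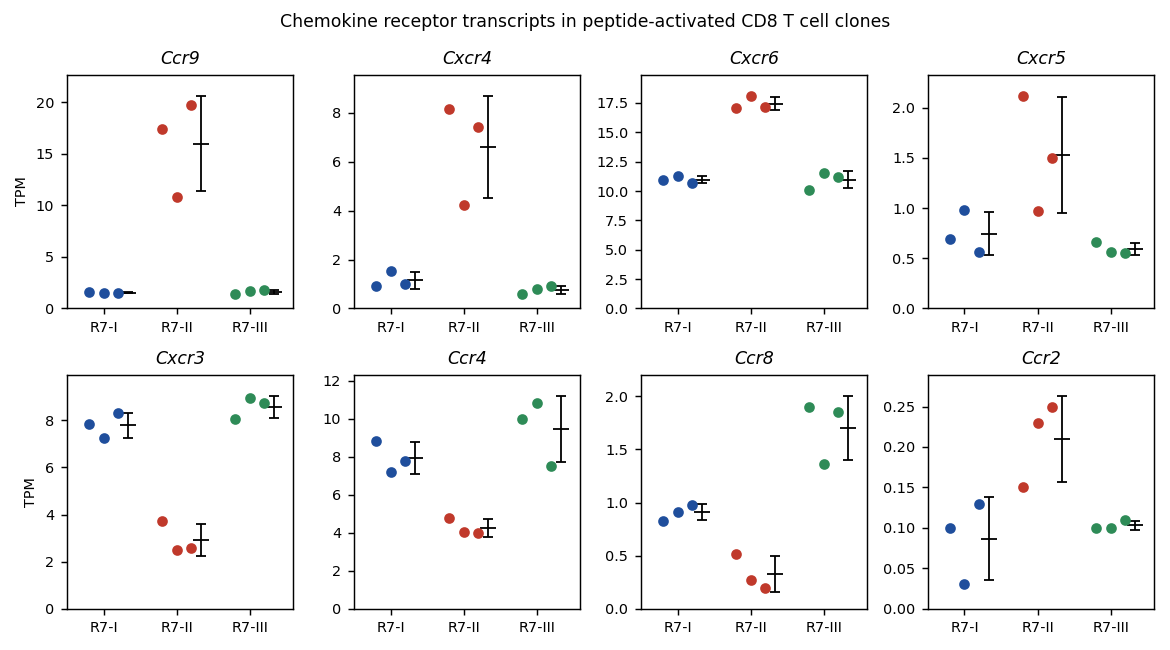
TPM (y axis, starting at 0, with its own range in each panel) of the 8 receptors in the 9 libraries; coloured points are the 3 libraries of each clone (x axis) in replicate order, and black bars are the mean with its SD. The R7-II points lie above all others for Ccr9, Cxcr4, Cxcr6 and Ccr2, below all others for Cxcr3, Ccr4 and Ccr8, and overlap them for Cxcr5.

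Ccr9, the receptor that leads T cells to the small intestine, was at 1.64, 1.47 and 1.53 TPM in the R7-I libraries, at 17.4, 10.8 and 19.8 TPM in R7-II and at 1.42, 1.67 and 1.77 TPM in R7-III. The lowest R7-II library, replicate 2, was thus far above the highest of the other 6, which lay close together. The mean of 16.0 ± 4.64 TPM (SD, n = 3) in R7-II was 10.3-fold that in R7-I (1.55 ± 0.0862 TPM) and 9.87-fold that in R7-III (1.62 ± 0.180 TPM). On the log2(TPM + 1) scale the difference was 2.70 (95% confidence interval 2.31 to 3.08) against R7-I, with an adjusted p of 4.9e-07, and 2.66 (2.27 to 3.05) against R7-III, with an adjusted p of 5.0e-07. R7-III and R7-I differed by 0.04 (-0.35 to 0.42), which was not called (adjusted p = 0.91). In the RefSeq annotation of GRCm38.p6, Ccr9 overlaps the long noncoding RNA gene Gm17021, not analysed here, and without strand their reads could not be told apart where they overlap.

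Cxcr4, which holds cells in bone marrow and lymphoid stroma, was at 0.91, 1.52 and 1.00 TPM in R7-I, at 8.15, 4.22 and 7.43 TPM in R7-II and at 0.58, 0.81 and 0.91 TPM in R7-III. Again the 3 R7-II libraries stood above the other 6, with replicate 2 the lowest of them. Cxcr4 thus had a ratio of means of 5.77 to R7-I and of 8.61 to R7-III. The log2 difference was 1.80 (1.35 to 2.24) against R7-I (adjusted p = 2.0e-05) and 2.07 (1.62 to 2.51) against R7-III (adjusted p = 8.1e-06). Cxcr4 in R7-III was 0.27 lower than in R7-I on this scale (-0.72 to 0.17), a difference that was not called (adjusted p = 0.39). B cells also carry Cxcr4, which amounted to 7.25% to 11.9% of the summed TPM of the B cell list in all libraries, so Cxcr4 RNA of the CD8 T cells and of B cells cannot be told apart here.

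Cxcr6, a receptor of T cells resident in tissue, had the highest mean of the 8 in each clone, although Ccr9 exceeded it in R7-II replicates 1 and 3. Its level was 10.95, 11.28 and 10.67 TPM in R7-I libraries, 17.08, 18.11 and 17.16 TPM in R7-II and 10.12, 11.50 and 11.22 TPM in R7-III. The R7-II libraries were close to each other and above the other 6, and here replicate 2 was the highest of them. The means differed 1.59-fold against either clone, with log2 differences of 0.62 (0.49 to 0.76; adjusted p = 8.4e-06) against R7-I and 0.63 (0.49 to 0.76; adjusted p = 8.7e-06) against R7-III. R7-III and R7-I differed by less than 0.01 on the log2 scale, with an interval of -0.14 to 0.13 (adjusted p = 0.98). Cxcr6 lies within the gene Fyco1 on the opposite strand, and the counting did not use strand. Fyco1 itself was higher in R7-II, by 0.74 against R7-I (adjusted p = 2.5e-05) and 0.68 against R7-III (adjusted p = 5.1e-05), and no exon of Cxcr6 overlaps one of Fyco1 in the GENCODE annotation.

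Cxcr5, the receptor of cells that enter B cell follicles, was low. Its values were 0.69, 0.98 and 0.56 TPM in R7-I libraries, 2.12, 0.97 and 1.50 TPM in R7-II and 0.66, 0.56 and 0.55 TPM in R7-III. R7-II replicate 2 lay below R7-I replicate 2, so the libraries of these clones overlapped, while those of R7-II and R7-III did not. The log2 difference against R7-I was 0.52 (0.14 to 0.90) and was not called (adjusted p = 0.019). Without R7-II replicate 2 it was called, at an adjusted p of 0.0026. Against R7-III it was 0.65 (0.27 to 1.02) and was called at an adjusted p of 0.0064, but the call was lost with a median-of-ratios scaling (0.010), with quantile normalization (0.051), with only these 2 clones in the fit (0.013), and without R7-I replicate 1, R7-II replicate 1 or 3, or any R7-III library (0.011 to 0.024). The 3′ end of Cxcr5 overlaps exons of Bcl9l, whose reads could not be told apart from those of Cxcr5 there. Bcl9l was between 4.66 and 5.31 TPM in R7-I and R7-III and between 15.5 and 20.6 TPM in R7-II.

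Among the receptors that were lower in R7-II was Cxcr3, which guides effector T cells to sites of interferon-driven inflammation. It differed more than Ccr4 and Ccr8 on the log2(TPM + 1) scale, whereas the ratio of means was larger for Ccr8 (2.75 for R7-I over R7-II and 5.16 for R7-III over R7-II). Its level was 7.86, 7.24 and 8.29 TPM in R7-I libraries, 3.71, 2.48 and 2.58 TPM in R7-II and 8.05, 8.93 and 8.72 TPM in R7-III. All R7-II libraries were below the other 6, and those of R7-I and R7-III overlapped. The mean in R7-I was 2.67-fold and that in R7-III 2.93-fold that in R7-II. The log2 difference was -1.18 (-1.43 to -0.92; adjusted p = 7.4e-06) against R7-I and -1.30 (-1.55 to -1.05; adjusted p = 3.9e-06) against R7-III. Between R7-III and R7-I it was 0.12 (-0.13 to 0.37) and was not called (adjusted p = 0.51). The authors report that quantitative PCR in a separate activation experiment correlated with their RNA sequencing for the genes they tested, with Cxcr3 as the exception. Cxcr4 was among the genes they tested. They also report less surface CXCR3 protein on R7-III than on R7-I cells early in infected mice, with no difference later.

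Ccr4, a receptor of skin-homing T cells, was at 8.84, 7.19 and 7.80 TPM in R7-I, at 4.78, 4.02 and 3.96 TPM in R7-II and at 10.0, 10.8 and 7.50 TPM in R7-III. The R7-II libraries were the lowest 3 of the 9, and those of R7-III spread widely enough to overlap R7-I. The log2 difference was -0.77 (-1.05 to -0.49; adjusted p = 3.0e-04) against R7-I and -0.98 (-1.26 to -0.70; adjusted p = 5.8e-05) against R7-III. That of R7-III against R7-I was 0.21 (-0.06 to 0.49) and was not called (adjusted p = 0.27).

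Ccr8, the receptor of the chemokine Ccl1, was the only one of the 8 whose 3 clones did not overlap in any pair. It was at 0.83, 0.91 and 0.98 TPM in R7-I, at 0.52, 0.27 and 0.20 TPM in R7-II and at 1.90, 1.36 and 1.85 TPM in R7-III. R7-III was thus highest and R7-II lowest, which is the order the series design gives for self-reactivity. A tie to self-reactivity was not tested, and the means of Cxcr3 and Ccr4 ran in the same order. The mean of Ccr8 in R7-III was 5.16-fold that in R7-II and 1.88-fold that in R7-I. Against R7-III the log2 difference of R7-II was -1.02 (-1.33 to -0.72; adjusted p = 7.4e-05). Against R7-I it was -0.53 (-0.83 to -0.22) and was called at an adjusted p of 0.0056; this call was lost with a pseudocount of 5 (adjusted p = 0.015), with only these 2 clones in the fit (0.011), and without any 1 of the R7-I libraries or R7-II replicate 2 or 3 (0.013 to 0.019). The difference of R7-III from R7-I was 0.50 (0.20 to 0.80), with an adjusted p of 0.028 that missed the threshold.

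Ccr2, the monocyte and effector T cell receptor for Ccl2, was barely detected. It was at 0.10, 0.03 and 0.13 TPM in R7-I, at 0.15, 0.23 and 0.25 TPM in R7-II and at 0.10, 0.10 and 0.11 TPM in R7-III. The R7-II libraries were the highest 3, but the levels were too low for the test across genes. An exact two-sided permutation test of the mean TPM in the 3 R7-II libraries against the other 6 gave p = 0.0238, the smallest this design allows. The same exact test gave the same p for Ccr9, Cxcr4, Cxcr6, Cxcr3, Ccr4 and Ccr8, whose R7-II libraries also lay wholly above or below the other 6, and p = 0.0476 for Cxcr5; these 8 p-values are not adjusted. Over all 11330 genes tested, 41.7% had the 3 R7-II libraries above the other 6 and 17.4% had them below. With 3 libraries against 3, the exact test cannot give a p below 0.1.

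**Figure D2:**
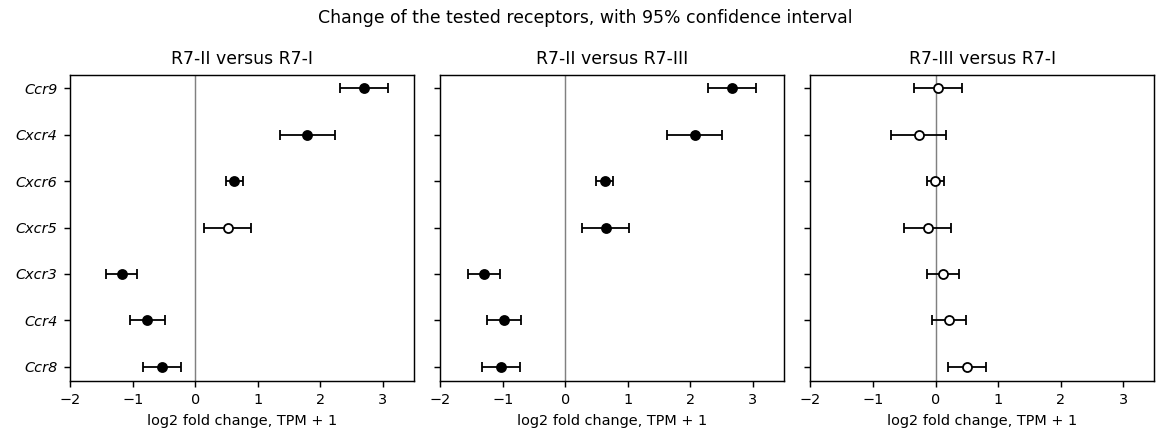
Differences on the log2(TPM + 1) scale (x axis) for the 7 tested receptors in the 3 comparisons, with the 95% confidence interval from limma; filled points passed an adjusted p of 0.01. Ccr9 and Cxcr4 lie furthest to the right against both other clones, Cxcr3 furthest to the left, and the points of R7-III against R7-I are all open, with the interval of Ccr8 (0.20 to 0.80) above 0.

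The order of the 8 levels also differed between the clones. In R7-I it ran Cxcr6, Ccr4, Cxcr3, Ccr9, Cxcr4, Ccr8, Cxcr5, Ccr2. The libraries of neighbours overlapped from Ccr4 to Cxcr3 and through Ccr9, Cxcr4, Ccr8 and Cxcr5, while Cxcr6, Cxcr3 and Cxcr5 stood apart from the next below. The order in R7-III was Cxcr6, Ccr4, Cxcr3, Ccr8, Ccr9, Cxcr4, Cxcr5, Ccr2, with Cxcr6, Ccr4 and Cxcr3 overlapping in turn, as did Ccr8 with Ccr9 and Cxcr4 with Cxcr5. R7-II gave Cxcr6, Ccr9, Cxcr4, Ccr4, Cxcr3, Cxcr5, Ccr8, Ccr2, in which Cxcr6 and Ccr9 overlapped, as did Cxcr4 and Ccr4, and Ccr8 and Ccr2.

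As a share of the summed TPM of the 8 receptors, Ccr9 made up 4.97% ± 0.178 (SD, n = 3) in R7-I, 32.0% ± 5.56 in R7-II and 4.81% ± 0.563 in R7-III. The share of Cxcr3 was 25.0% ± 1.59, 5.93% ± 1.00 and 25.4% ± 1.17 in the same order. That of Ccr4 was 25.5% ± 2.16, 8.71% ± 1.15 and 27.9% ± 4.28. Cxcr3 and Ccr4 thus accounted together for more receptor RNA than Cxcr6 in R7-I and R7-III, and for less than Ccr9 alone in R7-II. Cxcr6 held a similar share in all clones, 35.2% ± 1.39, 36.1% ± 6.93 and 32.5% ± 1.80, although its TPM was higher in R7-II, because the summed TPM was 49.3 ± 7.11 there against 31.1 ± 0.619 in R7-I and 33.8 ± 1.76 in R7-III. Ratios between receptors within a library do not change with a scaling factor per library, such as median-of-ratios, but can change with quantile normalization. The ratio of Cxcr3 to Cxcr4 lay between 4.76 and 8.64 in R7-I, between 0.347 and 0.588 in R7-II and between 9.58 and 13.9 in R7-III. That of Ccr9 to Cxcr3 lay between 0.185 and 0.209 in R7-I, between 4.36 and 7.66 in R7-II and between 0.176 and 0.203 in R7-III. Both ratios set R7-II apart from the other clones with no overlap.

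**Figure D3:**
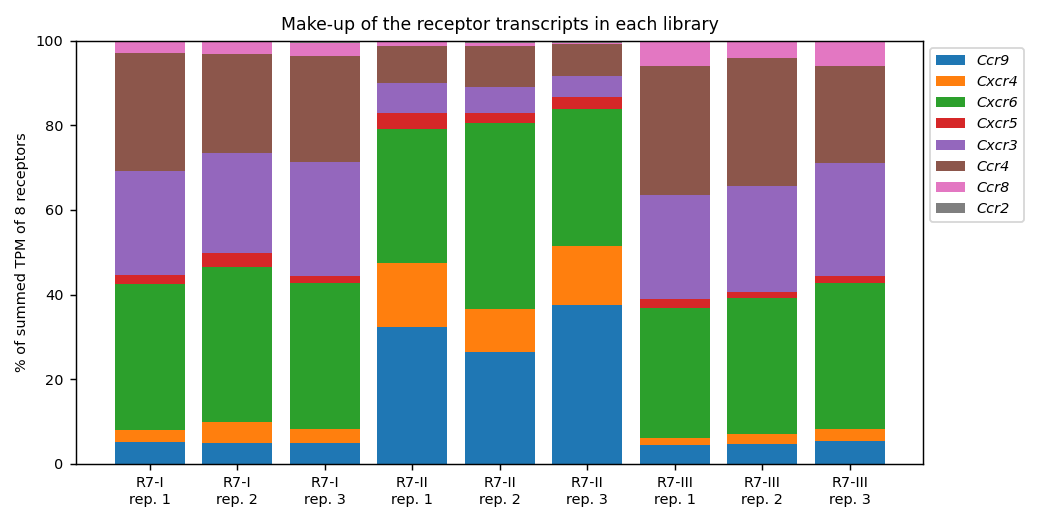
Share of each receptor in the summed TPM of the 8 (y axis, per cent, stacked) in the 9 libraries (x axis). Ccr9 takes between 26.3% and 37.4% in the R7-II libraries and between 4.32% and 5.42% in the other 6, while the shares of Cxcr3 and Ccr4 shrink in R7-II.

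Of the 8 genes, 6 lie on chromosome 9 (Cxcr5, Ccr4, Ccr8, Ccr9, Cxcr6 and Ccr2), Cxcr3 lies on chromosome X and Cxcr4 on chromosome 1, by the RefSeq annotation of GRCm38, the build that the files call mm10. Ccr9, Cxcr6 and Ccr2 belong to the receptor cluster of chromosome 9, where Cxcr6 starts 23.0 kb and Ccr2 318.5 kb beyond the end of Ccr9. Receptors of both directions shared this chromosome, as Ccr4 and Ccr8 were lower in R7-II and Ccr9 and Cxcr6 higher. Within 500 kb on either side of Ccr9, 15 other genes were in the table and 8 of them were tested. Their log2 differences of R7-II against R7-I had a median of 0.21 and reached at most 0.74, that of Fyco1, compared with 2.70 for Ccr9 itself. Of these 8 neighbours, 4 were called higher and 1 lower against R7-I, and 4 higher and 0 lower against R7-III. Cxcr6 itself was among those called higher in both comparisons. Among all genes tested, 40.6% were called higher and 15.5% lower against R7-I, and 35.6% and 18.0% against R7-III.

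The start regions of the receptors that differed most are shown because Klf2 and Tbx21, which encode factors with known binding motifs, also differed between the clones, as described further below. Sequences are from RefSeq on GRCm38, run from 250 bases before to 50 bases after the annotated start on the strand of the gene, and were found for 7 of the 8 receptors. Capitals mark the core of the Kruppel-like factor motif (CACCC or, on the other strand, GGGTG) and of the T-box motif (GGTGTG or CACACC), which overlap in a run such as GGGTGTG; both motifs were picked after the expression values were known. The regions are chr9:123766961-123767260 on the plus strand for Ccr9, chr1:128592250-128592549 on the minus strand for Cxcr4 and chrX:101734098-101734397 on the minus strand for Cxcr3.
Ccr9: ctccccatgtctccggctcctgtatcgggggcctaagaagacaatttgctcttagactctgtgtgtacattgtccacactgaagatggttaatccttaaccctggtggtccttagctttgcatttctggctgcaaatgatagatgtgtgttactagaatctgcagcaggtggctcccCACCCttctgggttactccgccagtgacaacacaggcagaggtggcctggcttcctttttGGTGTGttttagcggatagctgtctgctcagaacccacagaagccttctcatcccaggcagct
Cxcr4: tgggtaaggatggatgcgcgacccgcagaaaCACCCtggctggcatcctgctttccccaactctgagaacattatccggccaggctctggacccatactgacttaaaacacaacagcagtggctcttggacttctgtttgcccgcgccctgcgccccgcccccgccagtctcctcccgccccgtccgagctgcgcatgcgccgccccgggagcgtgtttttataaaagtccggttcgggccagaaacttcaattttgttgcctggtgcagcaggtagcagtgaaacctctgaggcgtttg
Cxcr3: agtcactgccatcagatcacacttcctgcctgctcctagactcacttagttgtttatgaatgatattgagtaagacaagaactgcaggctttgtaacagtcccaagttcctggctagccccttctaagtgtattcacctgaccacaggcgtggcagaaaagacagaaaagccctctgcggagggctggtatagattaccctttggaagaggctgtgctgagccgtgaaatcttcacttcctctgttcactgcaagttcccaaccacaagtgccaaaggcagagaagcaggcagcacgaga

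Ccr9 held 1 Kruppel-like factor match, with its first base at -73 from the start, and 1 T-box match at -13. Cxcr4 held 1 Kruppel-like factor match at -219 and no T-box match, and Cxcr3 held neither. Among the other receptors, Ccr4 and Ccr8 held 1 Kruppel-like factor match each, and Cxcr6 and Ccr2 held none of either motif. Of 32851 promoters of this length, 57.5% held a Kruppel-like factor match, 19.0% a T-box match and 14.0% both, so a match is common. These matches describe the letters in the window and do not show binding.

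Transcription factors tied to these receptors in T cells were taken as a list of 12, of which 9 were tested. In R7-II, 4 rose and 2 fell against both other clones (4 and 3 with quantile normalization). As 40.6% of all genes were called higher and 15.5% lower against R7-I, little can be read from these counts. Against R7-III the shares of all genes were 35.6% and 18.0%. Klf2, which drives homing receptors of resting T cells, was at 8.40 to 9.52 TPM in R7-I, 79.3 to 119.1 TPM in R7-II and 9.01 to 10.0 TPM in R7-III. The log2 difference was 3.33 against R7-I (adjusted p = 2.2e-08) and 3.30 against R7-III (adjusted p = 4.3e-08). Tbx21, which encodes T-bet, an activator of Cxcr3 in effector cells, was at 44.2 to 47.1 TPM in R7-I, 3.38 to 6.47 TPM in R7-II and 42.1 to 54.3 TPM in R7-III. It fell by 2.94 on the log2 scale against R7-I (adjusted p = 2.3e-07), and its difference against R7-III was -3.05 (adjusted p = 2.0e-07). The R7-II libraries were thus apart from the other 6 for both factors, in opposite directions.

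Foxo1, which acts upstream of Klf2, was higher in R7-II by 0.81 and 0.82 on the log2 scale against R7-I and R7-III. Bcl6, linked to Cxcr5 in follicular T cells, was higher by 1.29 and 1.58. Rara, a receptor for retinoic acid, the vitamin A product known to induce Ccr9, was higher by 0.59 and 0.39. Irf4, an activation-induced factor, was lower by a log2 difference of -0.31 and -0.21, and the second call was lost with quantile normalization (adjusted p = 0.040), with no filter on low values, without trended moderation, with only these 2 clones in the fit, and without R7-III replicate 2 or 3 (adjusted p from 0.011 to 0.017 in these). Eomes, the other T-box factor of CD8 T cells, missed the threshold with log2 differences of -0.65 and -0.63 (adjusted p = 0.039 and 0.045). Its R7-II values were 5.66, 5.51 and 12.8 TPM, and without the third, replicate 3, both comparisons passed (adjusted p = 1.8e-04 and 2.2e-04). Gata3 and Runx3 were not called either, and the median over the 9 factors was below 0.01 against R7-I and -0.06 against R7-III. Gata3 differed by -0.04 and -0.32 (adjusted p = 0.70 and 0.017) and Runx3 by less than 0.01 and -0.06 (adjusted p = 0.99 and 0.27). Against R7-III both were called lower in R7-II with a median-of-ratios scaling, at -0.42 and -0.18, and with quantile normalization Gata3, Runx3 and Eomes were called lower against R7-I, at -0.40, -0.18 and -0.94.

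Of 14 ligands of the 8 receptors, 5 were tested, and 0 rose and 2 fell in R7-II against R7-I and 0 rose and 1 fell against R7-III; Ccl7, Ccl8 and Ccl12, ligands of Ccr2, were at 0 in all libraries. The 5 had a median log2 difference of 0.23 from R7-I and 0.20 from R7-III. Over all genes tested, 40.6% were called higher and 15.5% lower against R7-I, and 35.6% and 18.0% against R7-III. Ccl1, the ligand of Ccr8 that activated T cells also make, was at 0.53, 0.59 and 0.46 TPM in R7-I, at 0, 0.21 and 0 TPM in R7-II and at 7.73, 7.76 and 6.37 TPM in R7-III. R7-III was thus highest and R7-II lowest for both Ccr8 and its ligand, with no overlap for either. Like Ccr8, Ccl1 exceeded 1 TPM only in the R7-III libraries and could be tested only through them. Ccl1 rose by 2.44 on the log2 scale in R7-III against R7-I (adjusted p = 1.4e-06), and R7-II differed from R7-III by -2.96 (adjusted p = 6.6e-08). Against R7-I it was -0.52 in R7-II (adjusted p = 0.0035), a call that was lost with a pseudocount of 5 (adjusted p = 0.053), with only these 2 clones in the fit (0.013), and without R7-I replicate 1 or 2 or R7-II replicate 1 or 3 (0.011 to 0.014).

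Cxcl10, a ligand of Cxcr3, was at 2.68 to 3.75 TPM in R7-I, 0.36 to 1.59 TPM in R7-II and 1.85 to 2.27 TPM in R7-III. It fell in R7-II against R7-I with a log2 difference of -1.08 (adjusted p = 0.0011), and the difference of -0.56 against R7-III missed the threshold (adjusted p = 0.040). Ccl25, the ligand of Ccr9, was at 4.29 to 5.09 TPM in R7-II and at 2.61 to 4.43 TPM in the other 6 libraries, and its log2 differences of 0.41 and 0.25 were not called (adjusted p = 0.019 and 0.12). Cxcl16, the ligand of Cxcr6, stayed between 0.43 and 1.65 TPM and was not called, at 0.23 and 0.20 (adjusted p = 0.32 and 0.39). Ccl22, a ligand of Ccr4 made mainly by dendritic cells and B cells, was at 2.25, 0.39 and 6.24 TPM in R7-II and at 0.10 to 1.24 TPM in the other libraries. Its differences of 1.19 and 0.90 were not called (adjusted p = 0.043 and 0.11), and without R7-II replicate 2 both were (adjusted p = 0.0012 and 0.0034).

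Chemokine receptors signal through Gi proteins to phospholipase C, PI3 kinase gamma and exchange factors for Rac, are phosphorylated by GRK kinases and bound by arrestins, and RGS proteins switch their G proteins off. Of 17 tested G protein subunits and effectors, 9 were higher in R7-II against both other clones and 0 lower against both, numbers that were 7 and 1 with a median-of-ratios scaling and 11 and 2 with quantile normalization. The list's median log2 difference from R7-I was 0.17 and from R7-III 0.20, near the medians of all genes (0.17 and 0.12). In single comparisons, 9 of the list were called higher and 1 lower against R7-I, and 11 and 1 against R7-III. Among all genes tested, 40.6% were called higher and 15.5% lower against R7-I, and 35.6% and 18.0% against R7-III. The share of all genes called against both clones was not computed. Prex1, a Rac exchange factor that responds to Gβγ, was at 22.7 to 28.7 TPM in R7-II and 8.50 to 10.1 TPM in the other 6 libraries, higher by 1.50 and 1.33 on the log2 scale. Dock2, the Rac activator lymphocytes need to migrate, was higher by 1.19 and 0.84. Plcb2, a phospholipase C that Gβγ activates, was higher by 1.01 and 0.81. Among these, Dock2 was also called between R7-III and R7-I, at 0.35 (adjusted p = 0.0016).

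All 5 tested genes of receptor desensitization rose in R7-II against R7-I, and 3 of them also against R7-III; the 3 were called under both other scalings too, while quantile normalization left 4 against R7-I. The median log2 difference of this list was 0.50 from R7-I and 0.40 from R7-III, and that of all genes tested was 0.17 and 0.12. The share of all genes called was 40.6% higher and 15.5% lower against R7-I, and 35.6% higher and 18.0% lower against R7-III. Arrb1, a beta-arrestin, was at 0.58 to 1.00 TPM in R7-I and R7-III and at 4.13 to 5.80 TPM in R7-II, higher by 1.86 and 1.70. It passed the filter only through the R7-II libraries. Grk6 was higher by 0.62 and 0.51, and Adrbk1, which encodes GRK2, by 0.49 and 0.40. Of the 9 tested RGS genes, 4 were higher and 3 lower in R7-II against both other clones, which became 2 and 3 with a median-of-ratios scaling and 3 and 2 with quantile normalization. In single comparisons, 5 RGS genes were called higher and 3 lower against R7-I, and 4 and 3 against R7-III. The median log2 difference of the 9 was 0.59 from R7-I and 0.38 from R7-III. Rgs1, which dampens chemokine responses of activated lymphocytes, was at 332.3 to 385.1 TPM in R7-I, 93.1 to 166.2 TPM in R7-II and 386.4 to 433.9 TPM in R7-III, with log2 differences of -1.62 and -1.81 (adjusted p = 1.5e-05 and 7.4e-06). Rgs2 was also lower, by -0.97 and -1.23, whereas Rgs14 was higher, by 1.02 and 0.86. The RGS list thus held changes in both directions, with the most abundant member of the 3 named here, Rgs1, the most reduced.

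**Figure D4:**
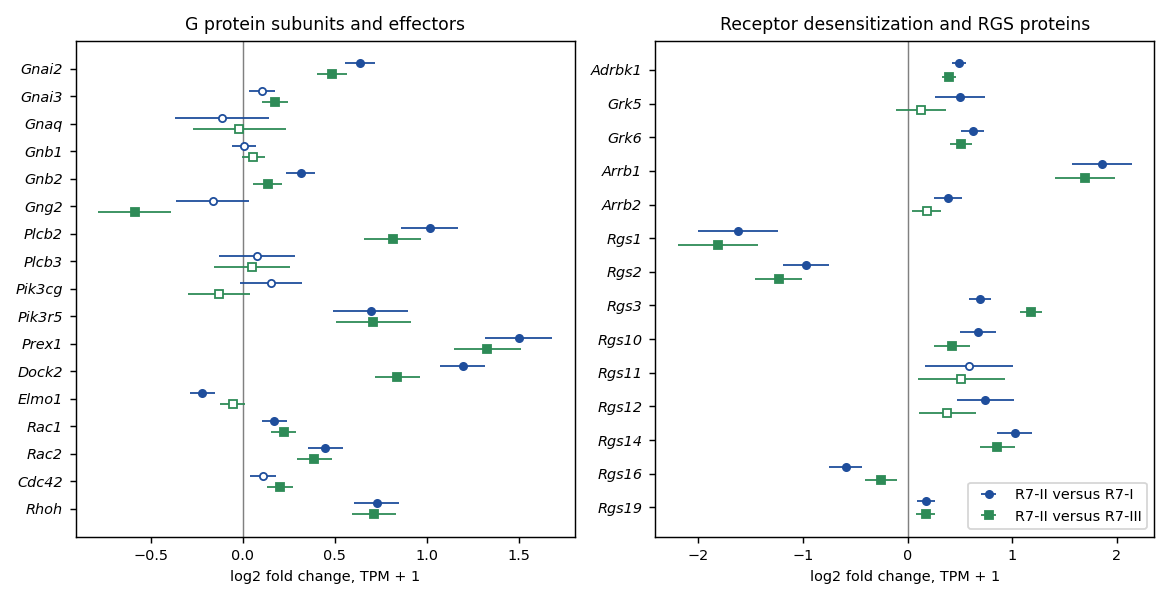
Differences of R7-II from R7-I (circles) and from R7-III (squares) on the log2(TPM + 1) scale (x axis) with 95% confidence intervals for the tested genes that act below chemokine receptors (y axis); filled symbols passed an adjusted p of 0.01. Prex1 (1.50 and 1.33), Dock2, Plcb2 and Arrb1 (1.86 and 1.70) lie to the right, and Rgs1 (-1.62 and -1.81) and Rgs2 to the left.

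The table held 16 further chemokine receptors, of which 4 were tested. Ccr7, which leads T cells into lymph nodes, was far above the 8 receptors in level, at 756.4 to 825.4 TPM in R7-I, 1099.7 to 1235.6 TPM in R7-II and 612.7 to 728.7 TPM in R7-III. It was higher in R7-II by 0.55 (adjusted p = 3.2e-05) and 0.78 (adjusted p = 2.8e-06) on the log2 scale. Cxcr2, best known from neutrophils, was at 17.2 to 20.4 TPM in R7-II and 13.7 to 16.3 TPM in the other libraries. It was called against R7-III alone (0.31; adjusted p = 0.0045), a call lost with either other scaling of the libraries (adjusted p = 0.050 and 0.15), with no filter on low values (0.010), and without R7-II replicate 1 or 3 or R7-III replicate 2 or 3 (0.011 to 0.021).

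Markers of other cells moved with the clones. The sorted cells carried their defining markers, with Cd3e, of the CD3 complex, between 267.1 and 389.5 TPM and Cd8a between 338.6 and 451.9 TPM in all libraries. Of the 8 genes of the CD8 T cell list, 7 were called higher in R7-II against each of the others (5 with a median-of-ratios scaling), among them Cd8b1 (496.0 to 555.1 TPM against 310.4 to 331.9 TPM) and Lck (515.0 to 535.9 TPM against 359.8 to 406.8 TPM), and Cd5 was lower (303.7 to 423.1 TPM against 531.4 to 690.9 TPM). At the same time, all 9 tested genes of a B cell list of 10 rose in R7-II against each of the others. So did all 7 genes of an MHC class II list, and 8 and 6 of these genes did with quantile normalization. Over all genes tested, 40.6% were called higher in R7-II against R7-I and 35.6% against R7-III. Cd22, Blk, Fcrla and Ciita exceeded 1 TPM only in R7-II libraries, so they could be tested only because they were high there. The summed TPM of the B cell list was 10.1 to 17.0 in R7-I, 38.8 to 78.3 in R7-II and 6.32 to 9.42 in R7-III. None of its genes was at 0 in all libraries; Cd79b was highest, at 13.7 to 25.4 TPM in R7-II, followed by Cd79a at 8.11 to 19.2 TPM and Ms4a1 at 3.37 to 8.53 TPM. The MHC class II list summed to 33.0 to 50.4 TPM in R7-I, 114.8 to 185.9 TPM in R7-II and 25.0 to 29.2 TPM in R7-III, led by Cd74, H2-Aa and H2-Ab1. These lists were lowest in R7-II replicate 2 among the R7-II libraries, the same library that was lowest for Ccr9, Cxcr4 and Cxcr5. That library was also the R7-II library nearest to the other clones for Klf2 (79.3 TPM), Prex1, Rgs1 and Cd5. For Rgs10 (78.2 TPM) and Cd8a (451.9 TPM) it was the furthest from them. What this match reflects was not tested.

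Of a myeloid list of 12 genes, 11 were tested. In R7-II, 8 were called higher when set against R7-I and 9 when set against R7-III (4 and 7 with quantile normalization). Csf1r, Itgam, Cd14, Fcer1g, Lyz1, S100a8, S100a9 and Cybb exceeded 1 TPM only in R7-II libraries. These counts thus depend on genes that could be tested only because they were high there. The shares called over all genes tested were 40.6% higher and 15.5% lower against R7-I, and 35.6% and 18.0% against R7-III. The list summed to 63.9 to 72.4 TPM in R7-I, 103.9 to 174.8 TPM in R7-II and 64.5 to 72.0 TPM in R7-III. Cst3 was its highest gene in every library, at 59.8 to 82.2 TPM, while Lyz2 was at 13.8 to 56.7 TPM in R7-II and at most 2.43 TPM elsewhere, and Cybb at 2.17 to 6.10 TPM in R7-II and at most 0.72 TPM elsewhere. Plasmacytoid dendritic cells also carry Ccr9. Siglech, their defining marker, was at 0 to 0.05 TPM in all libraries and at 0 in 2 of the R7-II libraries, and Cd209d was at 0 in all. Ly6d, which this list shares with lymphoid progenitors and B cells, was higher in R7-II (3.62 to 9.89 TPM against 0.64 to 1.28 TPM) and was 1 of 2 tested genes of the list, the other being Tcf4, which was not called (though lower than in R7-I under both other scalings). The sum of this list was 2.37 to 2.92 TPM in R7-I, 4.57 to 11.1 TPM in R7-II and 1.72 to 2.33 TPM in R7-III. The NK cell list of 4 genes had no tested gene, with Klra8 and Klra4 at 0 throughout and a sum of at most 0.17 TPM. In the CD4 T cell list, Cd4 itself stayed at or below 1.00 TPM, and of its 2 tested genes Foxp3 was higher and Cd40lg lower in R7-II against R7-III, with neither called against R7-I; the Foxp3 call was lost with quantile normalization. Foxp3 exceeded 1 TPM only in R7-II libraries and could be tested only through them. The sum of the CD4 T cell list was 3.36 to 4.11, 4.03 to 5.81 and 5.62 to 8.01 TPM in R7-I, R7-II and R7-III.

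B cells are known to carry Cxcr4 and Cxcr5, so these were set against the B cell list. Cxcr4 amounted to 7.25% to 9.90% of the summed B cell TPM in R7-I, 10.4% to 11.9% in R7-II and 8.82% to 9.66% in R7-III. These shares differ far less between the clones than Cxcr4 itself, so that Cxcr4 moved nearly in proportion to the B cell list over the 9 libraries. Cxcr5 amounted to 5.49% to 5.77% of that sum in R7-I, 2.41% to 2.71% in R7-II and 5.84% to 10.4% in R7-III, and so rose less than the B cell genes did. Ccr9 amounted to 8.65% to 15.1% in R7-I, 22.2% to 31.8% in R7-II and 18.2% to 22.5% in R7-III. Cxcr6 did not follow these lists within R7-II, being highest in replicate 2, where they were lowest. What part RNA of other cells had in the receptor values was not tested.

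**Figure D5:**
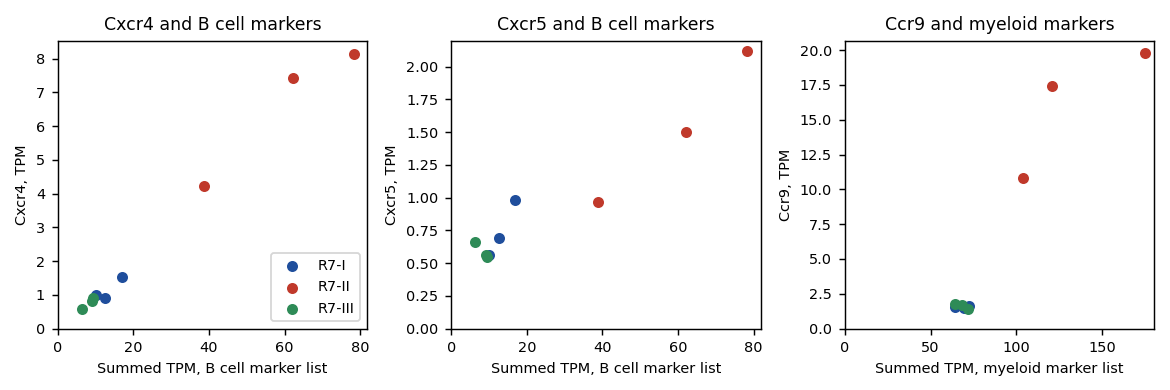
TPM of Cxcr4 and Cxcr5 against the summed TPM of the B cell list, and of Ccr9 against that of the myeloid list, in the 9 libraries coloured by clone; all axes start at 0. The R7-II libraries are highest on the x axis of each panel, and among them replicate 2 is lowest on both axes.

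Over the 9 libraries, the 7 tested receptors fell into a pair of groups by their correlation with each other on the log2(TPM + 1) scale, with Ccr9, Cxcr4, Cxcr5 and Cxcr6 on one side and Cxcr3, Ccr4 and Ccr8 on the other. Within the first group Pearson's r ran from 0.79 (Cxcr5 with Cxcr6) to 0.98 (Cxcr4 with Ccr9), and within the second from 0.86 to 0.94. Between the groups it ran from -0.97 (Cxcr3 with Cxcr6) to -0.70 (Cxcr5 with Ccr8). All these values rest on the step between R7-II and the other clones, which the libraries share, and describe it again. Genes whose pattern was most like that of Ccr9 were Sema4a, a semaphorin, Gabbr1, a GABA receptor subunit, and Vipr1, a receptor for vasoactive intestinal peptide (r between 0.998 and 0.999). Sema4a rose from means of 0.923 and 0.987 TPM in R7-I and R7-III to 4.92 TPM in R7-II.

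Nearest to Cxcr4 were Zfyve26, Syk and Shc1 (r between 0.996 and 0.998). Zfyve26, the nearest, had means of 11.9, 17.8 and 11.5 TPM in R7-I, R7-II and R7-III. In the same order, the means of Shc1 were 30.4, 41.2 and 29.5 TPM. Those of Syk, a kinase of B cell and myeloid receptors, were 0.417, 2.74 and 0.337 TPM. The genes nearest to the other receptors were Zdhhc9, Trim23 and Flcn for Cxcr5 (r from 0.977 to 0.984), Zc4h2, Dlgap4 and Mtif2 for Cxcr6 (0.990 to 0.996), Vcpkmt, Soat1 and Dclre1b for Cxcr3 (0.992 to 0.995), Sco2, Tpm1 and Entpd4 for Ccr4 (0.973 to 0.978), and 1700052K11Rik, Rangap1 and Mapre2 for Ccr8 (0.982 to 0.993). The companions of Ccr8 were, like it, highest in R7-III, as for Rangap1 with means of 185.3, 170.8 and 203.8 TPM in R7-I, R7-II and R7-III.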

How the data were processed

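RNA of 9 libraries of sorted, ROP7 peptide-activated CD8 T cells was measured, 3 per clone. Per the labels, the authors prepared libraries from polyadenylated RNA without marking strand, used RSEM 1.2.11 with RefSeq genes of mm10, and deposited TPM for each gene with 2 decimals. The authors tested counts with DESeq2 1.8.1; the counts were not used here. RSEM called an aligner not given in the sources used here. Each value column carried the name of 1 sample.

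The 8 receptors, the gene lists, the motifs and the rule for named genes were chosen with earlier results of these data known. The rule took the 8 receptors, other chemokine receptors past the threshold, tested ligands and transcription factors, the 3 largest changes in each signalling list, the 3 most abundant genes of each marker list and the 3 genes most correlated with each tested receptor. Bcl9l and Fyco1 were added because they overlap a receptor.

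TPM values are not counts, so limma 3.58.1 in R 4.3.3 (lmFit, eBayes with trend) was run on log2(TPM + 1) for the 11330 genes whose highest TPM exceeded 1. The 9 libraries entered 1 fit, with p-values adjusted over all of these genes by Benjamini-Hochberg and a threshold of 0.01. The fit was tested on simulated data. Exact permutation tests used scipy 1.17.1 in Python 3.11.15. The alternatives were other pseudocounts, filters, scalings, moderation, thresholds and samples in the fit, a replicate block, and the fit without each library in turn. Without the depth of each library, no counting interval is given.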

Additional observations from a re-analysis of the deposited data

How the results depend on the processing

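Most values for the 8 receptors kept their direction and their side of the threshold: of 393 values recomputed under the alternatives, 368 did, 17 lost a call, 3 gained one and 5 changed sign. Other filters, moderation or thresholds and the replicate block leave the difference itself unchanged and can alter only the call. Differences of R7-III from R7-I that stayed uncalled are also among the 368. The values that changed sign were differences between R7-III and R7-I that had not been called: Cxcr3 was -0.0041 and Ccr9 -0.11 with quantile normalization, and without single libraries Cxcr6 ranged from -0.038 to 0.047 and Ccr9 from -0.0021 to 0.095. Among 967 values of the other named genes, 10 changed sign, all of genes not called in that comparison. With quantile normalization the difference of R7-II from R7-I was -0.099 for Cxcl16, -0.18 for Runx3 and -0.018 for Cxcr2, and that from R7-III was -0.051 for Cxcl16; a median-of-ratios scaling gave -0.17 for Runx3. Without single libraries, the difference of R7-II from R7-I ranged from -0.015 to 0.43 for Cxcl16, from -0.11 to 0.055 for Gata3 and from -0.027 to 0.019 for Runx3, and that from R7-III ranged from -0.048 to 0.40 for Cxcl16. For R7-III against R7-I, 1 receptor (Ccr8) and 2142 genes passed at an adjusted p of 0.05. At the threshold of 0.01, 953 genes passed with all libraries, and 422 (without R7-I replicate 1) to 1076 without each library in turn. Each R7-I or R7-III library lowered the count at 0.01 by over 1.5 times when left out, which also leaves fewer samples. Leaving out libraries gave 5 to 6 receptors called for R7-II against R7-I, 6 to 7 where R7-III was the partner, and 0 without R7-II in the comparison.

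The pseudocount set the size of folds of low genes: with 0.1 and 5 in place of 1, Ccr9 against R7-I was 3.24 and 1.66, Cxcr4 2.41 and 0.90, Cxcr5 0.92 and 0.18, and Ccr8 -1.29 and -0.15. A filter on the mean TPM instead of the maximum left out Ccr8 and Cxcr5. After median-of-ratios scaling, 47.7% of the genes called between R7-II and R7-I were higher in R7-II against 72.4% with TPM, 47.9% against 66.4% with R7-III as the partner, and of those called higher or lower in R7-III against R7-I 59% were higher against 82.8%; the cause was not tested. The replicate numbers did not pair the libraries: deviations of same-numbered libraries from their clone means correlated between -0.045 and 0.089, with 0 of 9 pairs above 0.1. With the replicate number as a block, 6, 6 and 0 receptors and 6015, 5786 and 733 genes passed in the 3 comparisons, and Cxcr5 was not called against R7-III (adjusted p = 0.011). The number of libraries and the unknown depth of each limit what can be said of Ccr2, Ccr8 and Cxcr5, all near or below 2 TPM.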
